A study of Mus musculus with 15 samples.

Results

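The 9 genes described are 5 of the myostatin and activin axis and 4 ubiquitin ligases of muscle atrophy, taken by symbol from the 56980 genes of the deposited table: the ligand genes Mstn, Gdf11 and Inhba, the receptor gene Acvr2b, the inhibitor gene Fst, and the ligase genes Fbxo32, Trim63, Fbxo30 and Fbxo31. All 9 were found in the table. The values came from bulk RNA sequencing of 15 libraries, each from 1 dystrophin-deficient DBA/2J-mdx mouse, a severe model of Duchenne muscular dystrophy, and no healthy control was analysed here. Mice had received dasatinib and quercetin (D + Q), a drug pair used to remove senescent cells, or the vehicle, by gavage 2 times per week. For tibialis anterior (TA, a fast hindlimb muscle), dosing began at 3 months of age and lasted 2 months, with 4 D + Q mice, all male, and 4 vehicle mice, 2 male and 2 female, collected at 5 months. For heart, dosing began at 12 months and lasted 4 months, with 3 D + Q mice, 1 labelled male and 2 female, and 4 vehicle mice, 2 male and 2 female, collected at 16 months. Any difference between TA and heart therefore also holds a difference of age and of length of dosing, and these cannot be told apart. The whole muscle and the whole heart carry the dystrophin defect and all of their cell types, so that a level is an average over muscle fibres or cardiomyocytes, fibroblasts, vessels and leukocytes. Levels are in TPM, estimated transcripts scaled for their length and to the same total in each library, which can be set side by side between genes.

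Myostatin, the product of Mstn, is a TGF-beta family ligand that muscle fibres secrete and that restrains muscle growth. Myostatin, its close relative GDF11 and activin A, a dimer of the Inhba product, bind type II activin receptors, of which Acvr2b encodes one, and signal through type I receptors to SMAD2 and SMAD3. Follistatin, the product of Fst, binds activins, myostatin and GDF11 outside the cell and keeps them from the receptor. Loss of myostatin gives large muscles, and the ligand has been a drug target in muscular dystrophy. Downstream, SMAD2 and SMAD3 signalling lowers AKT activity and so releases FoxO transcription factors, which raise the ligase genes: Fbxo32 encodes atrogin-1 (MAFbx), the substrate receptor of an SCF ubiquitin ligase, Trim63 encodes the RING ligase MuRF1, which marks thick filament proteins for the proteasome, and Fbxo30 encodes MUSA1, an SCF receptor held down by BMP signalling. Fbxo31 encodes another F-box substrate receptor of the SCF family.

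On GRCm39, with identifiers as in the table, Mstn (ENSMUSG00000026100) lies at chr1:53100799-53107240 on the plus strand, Gdf11 (ENSMUSG00000025352) at chr10:128718164-128727747 on the minus strand and Inhba (ENSMUSG00000041324) at chr13:16186373-16206206 on the plus strand. Acvr2b (ENSMUSG00000061393) lies at chr9:119231103-119271213 on the plus strand and Fst (ENSMUSG00000021765) at chr13:114588731-114595521 on the minus strand. Of the ligases, Fbxo32 (ENSMUSG00000022358) lies at chr15:58039275-58078741 on the minus strand, Trim63 (ENSMUSG00000028834) at chr4:134042393-134056948 on the plus strand, Fbxo30 (ENSMUSG00000047648) at chr10:11156770-11173806 on the plus strand and Fbxo31 (ENSMUSG00000052934) at chr8:122276177-122305642 on the minus strand. All 9 are protein-coding, and values are sums over all transcripts of a gene.

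The sequences just upstream of 4 of these genes are printed for the pairs that the levels set against each other, the paralogous ligands Mstn and Gdf11 and the ligases Trim63 and Fbxo32. Each is the 300 bases before the start of the canonical transcript (GRCm39, GENCODE M39), 5′ to 3′ on the strand of the gene, from a reference that is C57BL/6J while the mice are DBA/2. Capitals mark E-boxes (CANNTG, the core bound by myogenic and other bHLH factors) in the ligand pair and a FoxO core (GTAAACA, or its reverse complement TGTTTAC) in the ligase pair.
Mstn, chr1:53100499-53100798, plus strand: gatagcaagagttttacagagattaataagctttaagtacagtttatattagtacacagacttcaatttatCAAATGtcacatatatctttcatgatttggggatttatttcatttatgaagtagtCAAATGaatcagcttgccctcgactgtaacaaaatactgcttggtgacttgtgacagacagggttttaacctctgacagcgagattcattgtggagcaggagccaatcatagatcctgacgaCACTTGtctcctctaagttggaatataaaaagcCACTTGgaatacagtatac
Gdf11, chr10:128727748-128728047, minus strand: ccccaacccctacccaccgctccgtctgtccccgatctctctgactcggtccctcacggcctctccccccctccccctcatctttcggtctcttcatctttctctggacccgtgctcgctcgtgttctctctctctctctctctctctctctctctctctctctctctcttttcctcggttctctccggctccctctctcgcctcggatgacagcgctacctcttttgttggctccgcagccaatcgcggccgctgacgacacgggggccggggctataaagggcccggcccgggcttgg
Trim63, chr4:134042093-134042392, plus strand: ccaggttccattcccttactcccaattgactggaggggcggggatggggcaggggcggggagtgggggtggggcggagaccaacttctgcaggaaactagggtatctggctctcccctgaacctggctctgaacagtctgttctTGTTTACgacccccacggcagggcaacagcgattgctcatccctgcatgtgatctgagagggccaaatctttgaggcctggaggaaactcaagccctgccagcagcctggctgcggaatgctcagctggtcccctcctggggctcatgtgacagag
Fbxo32, chr15:58078742-58079041, minus strand: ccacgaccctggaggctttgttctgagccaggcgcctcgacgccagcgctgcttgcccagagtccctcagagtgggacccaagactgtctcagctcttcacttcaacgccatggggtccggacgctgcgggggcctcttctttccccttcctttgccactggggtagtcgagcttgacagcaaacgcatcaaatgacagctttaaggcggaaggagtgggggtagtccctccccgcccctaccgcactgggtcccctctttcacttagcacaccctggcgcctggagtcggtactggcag

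Mstn has 4 E-boxes in this window, which begin 229, 174, 52 and 19 bases before the start, and Gdf11 has none. E-boxes are common, with 71.5% of 21769 protein-coding promoters of the same length holding at least 1, and the share holding 4 or more was not computed. The Mstn window is also AT-rich at 36.3% GC, against 63.0% for Gdf11 and a median of 52.3% over all promoters. In Trim63 the FoxO core begins 156 bases before the start, and 3.43% of all promoters hold this core on either strand. The other 8 genes, Fbxo32 among them, have no match to it in these 300 bases, which says nothing on sites farther away. Just 5′ of the Trim63 core, and overlapping no part of it, lies the only match among the 9 genes to ACANNNTGT, the letters of a glucocorticoid receptor element, which 6.53% of all promoters hold. It begins 168 bases before the start and shares bases with the only GTCTG, a SMAD core, of that window. Trim63 also has 4 E-boxes in this window, and Fbxo32 has 1. All motifs were searched on both strands, and a match is a match of letters.

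Several libraries stood apart before any comparison. Each library summed to 1000000 TPM over 21830 to 25378 genes above 0, and no 2 libraries were identical. The summed TPM of 7 fast fibre genes was 35540 to 43270 in TA and 288.5 to 645.5 in heart. In heart it came almost wholly from Acta1, apart from D + Q 2, where Acta1 made up 303.7 of 360.6 TPM. The sum of 4 cardiac muscle genes (Myh6, Tnnt2, Tnni3 and Actc1) was 13640 to 17880 in heart and 51.7 to 116 in TA. Both sums set the tissues apart as the labels state. In TA, libraries D + Q 1, D + Q 4 and vehicle 3 carried 364, 188 and 168 TPM of 5 injury genes (Ccl2, Il33, Sdc4, Hmox1 and Adam8), against 31.0 to 58.4 in the other 5. The paper lists these 5 genes among the most significant ones raised by D + Q in TA. Injury is a name given to them here, and no measure of injury was at hand for these libraries. Among hearts, the atrial genes (Myl7, Myl4, Sln, Nppa and Bmp10) summed to 864 to 4260 TPM in vehicle and 382 to 427 in D + Q, and D + Q 2 carried trace fast fibre transcripts, with Myh4 at 10.2 TPM against at most 0.330 in the other hearts. The sex genes of 1 heart library, D + Q 3, went against its male label. By these genes all 4 D + Q TA libraries were male and all 3 D + Q hearts female, so that in D + Q mice tissue and sex cannot be told apart, while the vehicle groups held 2 libraries of each sex in either tissue.

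**Figure D1:**
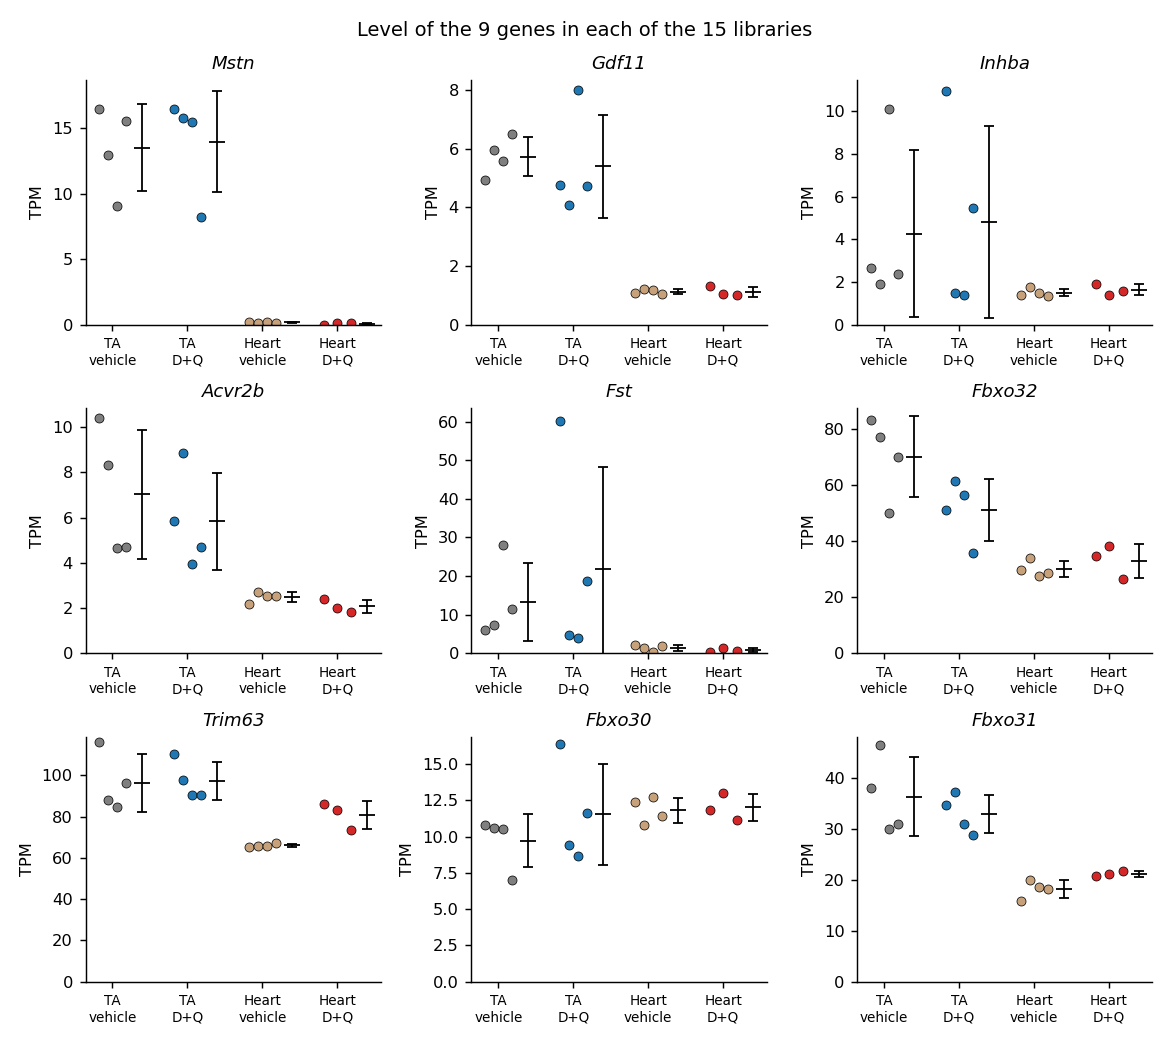
TPM (y axis) of each of the 9 genes in every library, grouped by tissue and treatment on the x axis. Points are libraries, and the horizontal mark with its bar is the mean ± SD of 4 libraries, or 3 for heart D + Q, with the bar of Fst in TA D + Q cut at 0. Mstn and Gdf11 are high in TA and low in heart whatever the treatment, Trim63 in heart is higher in all 3 D + Q libraries, and Fst and Inhba in TA are spread widely within each group.

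The first comparison asks how the genes differ between the limb muscle and the heart. In vehicle mice, 7 of the 9 genes were higher in TA than in heart (limma, Benjamini-Hochberg adjusted p under 0.05 and a log2 difference above 0.5, the rule for "called" throughout), where 22.6% of the 17868 genes tested were called higher and 14.1% lower. In D + Q mice 6 of 9 were called higher, against 21.4% higher and 15.9% lower of all genes. In vehicle mice 8 of 9 had every TA library above every heart (25.9% of all genes) and 1 had every one below (15%), and in D + Q mice 6 of 9 and none (26.8% and 19.9%). None was called lower in either. At an unadjusted p under 0.05, 7 of 9 were positive in each, beside 32.8% of all genes in vehicle and 29.2% in D + Q mice. The members' median difference was 1.20 on the log2 scale in vehicle mice and 0.92 in D + Q mice, beside medians of 0.16 and 0.09 over all genes tested. The median over all genes moved toward 0 when libraries were rescaled by the median of ratios, and the calls over all genes then went from 4038 higher and 2518 lower to 2926 and 3288 in vehicle mice, and from 3824 and 2847 to 3277 and 3465 in D + Q mice. Genes needed 0.5 TPM in 3 libraries to be tested, and Mstn met this through TA alone, so that its difference was in part fixed by the filter. In bulk tissue, fewer cells of a type and less RNA per cell cannot be told apart. The vehicle and D + Q comparisons share no library, but both come from 1 fit of all 15 libraries with a shared estimate of the spread. The D + Q comparison is also one of male TA with female heart by the sex genes. With labelled sex as a covariate over all 15 libraries 6 of 9 were again called. That covariate counts heart D + Q 3 as male, against its sex genes, and no such fit was run with sex read from expression. The part of sex in this comparison was therefore not tested.

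Mstn showed the widest separation between the tissues. It ranked 5191st by TPM of 28470 genes above 0 in vehicle TA and 19104th of 29229 in vehicle heart. In vehicle TA it was at 16.5, 12.9, 9.07 and 15.5 TPM, and in D + Q TA at 16.4, 15.7, 15.4 and 8.25 TPM. In vehicle hearts it was at 0.235, 0.159, 0.222 and 0.123 TPM, and in D + Q hearts at 0, 0.109 and 0.164 TPM. Every TA library was far above every heart, and the mean of vehicle TA was 73.0 times that of vehicle heart. On the log2(TPM + 0.5) scale, which understates the change of a gene this low in heart, the difference was 4.32 ± 0.22 (SE, adjusted p = 2.87e-10) in vehicle and 4.57 ± 0.24 (adjusted p = 4.22e-10) in D + Q mice. Since Mstn passed the filter through TA alone, these p values are no separate support for the difference. The heart library with trace fast fibre transcripts, D + Q 2, had 0.109 TPM of Mstn, inside the range of the other hearts.

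Gdf11, the paralog of Mstn, was also higher in TA but by less. Vehicle TA libraries had 4.93, 5.96, 5.58 and 6.49 TPM and D + Q TA libraries 4.75, 4.10, 8.003 and 4.75 TPM. Vehicle hearts had 1.08, 1.22, 1.20 and 1.05 TPM and D + Q hearts 1.31, 1.03 and 1.01 TPM. The tissues did not overlap, with log2 differences of 1.93 ± 0.17 (SE, adjusted p = 2.13e-07) in vehicle and 1.83 ± 0.18 (adjusted p = 9.99e-07) in D + Q mice. The order of the paralogs thus turned between the tissues: Mstn was 1.63 to 3.84 times the TPM of Gdf11 in the 8 TA libraries and 0 to 0.218 times in the 7 hearts, a ratio looked at after the values were seen and given with no test. Gdf11 shares 448 bases of exon with Sarnp on the opposite strand, an RNA-binding protein gene at up to 34.8 TPM, and whether the quantification used strand is not given in the sources used here.

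Inhba, the third ligand gene, did not pass the test in either group. In vehicle mice its log2 difference was 0.96 (95% interval -0.15 to 2.07, adjusted p = 0.15) and in D + Q mice 0.92 (-0.28 to 2.12, adjusted p = 0.207). Hearts lay between 1.34 and 1.91 TPM. The TA libraries lay between 1.41 and 10.9 TPM. The groups overlapped in D + Q mice, and in vehicle mice the lowest TA library had 1.89 TPM and the highest heart 1.75.

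The receptor gene Acvr2b was higher in TA in both treatments. It was at 10.4, 8.32, 4.65 and 4.72 TPM in vehicle TA, 5.85, 8.86, 3.95 and 4.68 TPM in D + Q TA, 2.18, 2.72, 2.52 and 2.53 TPM in vehicle heart and 2.39, 2.02 and 1.83 TPM in D + Q heart. Every TA library was above every heart, by 1.26 ± 0.25 (SE, adjusted p = 0.000766) on the log2 scale in vehicle and 1.24 ± 0.27 (adjusted p = 0.00168) in D + Q mice.

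Fst varied most among the TA libraries. Vehicle TA libraries had 6.10, 7.39, 27.9 and 11.5 TPM and D + Q TA libraries 60.3, 4.62, 3.90 and 18.8 TPM. Vehicle hearts had 2.04, 1.24, 0.441 and 1.80 TPM and D + Q hearts 0.414, 1.34 and 0.548 TPM. The lowest TA library was still above the highest heart. The log2 difference was 2.72 ± 0.69 (SE, adjusted p = 0.00486) in vehicle and 3.40 ± 0.75 (adjusted p = 0.00178) in D + Q mice, and with any 1 library left out it was 2.28 to 2.98 and 2.65 to 3.91, called in each. In TA the summed level of satellite cell genes Pax7 and Myf5 was 1.97 to 2.75 TPM and that of regenerating fibre genes Myh3, Myh8 and Myog 45.5 to 110 TPM, while in heart these sums were at most 0.0081 and 0.373. Leukocyte genes summed to 265 to 663 TPM in TA and 123 to 245 in heart. The part of these cells in the Fst difference was not tested.

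Among the ligases the order of level was the same in all 4 groups, with Trim63 highest, then Fbxo32, Fbxo31 and Fbxo30, by mean TPM. Fbxo32 was at 83.2, 77.3, 50.2 and 70.3 TPM in vehicle TA and 29.7, 34.0, 27.5 and 28.6 TPM in vehicle heart, a log2 difference of 1.20 ± 0.18 (SE, adjusted p = 5.87e-05). In D + Q mice, at 51.1, 61.4, 56.4 and 36.0 TPM in TA and 34.6, 38.3 and 26.4 TPM in heart, the difference was 0.61 ± 0.19 (adjusted p = 0.0186), and the lowest TA library lay inside the heart range. This call was lost without TA D + Q 2 (0.52, adjusted p = 0.0546) and without heart D + Q 3 (0.46, adjusted p = 0.106), the latter the library whose sex genes went against its label. Fbxo31 was higher in TA by 0.97 ± 0.13 (SE, adjusted p = 2.46e-05) in vehicle and 0.62 ± 0.14 (adjusted p = 0.00259) in D + Q mice, and the tissues did not overlap, at 28.9 to 46.7 TPM in TA and 15.8 to 21.8 TPM in heart.

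Trim63 differed least among the ligases that passed. It was at 116, 88.3, 84.8 and 96.2 TPM in vehicle TA and at 65.3, 66.0, 65.8 and 67.2 TPM in vehicle heart, with a log2 difference of 0.53 ± 0.10 (SE, adjusted p = 0.000524). In D + Q mice, at 110, 97.5, 90.7 and 90.6 TPM in TA and 86.0, 83.0 and 73.4 TPM in heart, it was 0.26 ± 0.11 (adjusted p = 0.0636), not called. The vehicle call stood just past the fold limit and was lost with libraries rescaled by the median of ratios (0.34) and without TA vehicle 1 (0.44), both at an adjusted p under 0.05. Fbxo30 was the only one of the 9 with a negative difference, -0.28 (95% interval -0.66 to 0.09, adjusted p = 0.213) in vehicle and -0.10 (-0.51 to 0.31, adjusted p = 0.714) in D + Q mice, at 6.99 to 16.4 TPM in TA and 10.8 to 13.0 TPM in heart. Trim63 and Fbxo32 thus stood in different proportion in the tissues of vehicle mice: Trim63 was 1.94 to 2.40 times Fbxo32 in vehicle hearts and 1.14 to 1.69 times in vehicle TA. In D + Q mice the ratio was 2.17 to 2.78 in heart and 1.59 to 2.52 in TA, which overlap, and these ratios were formed after seeing the values and have no test.

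**Figure D2:**
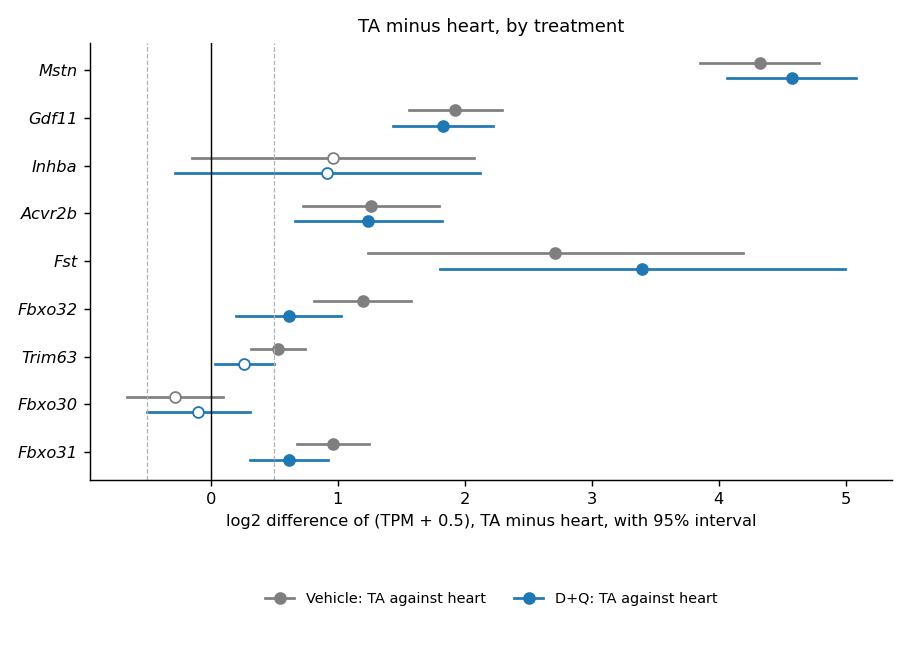
Difference between TA and heart (x axis, log2 of TPM + 0.5) for each gene (y axis), in vehicle mice in grey and D + Q mice in blue. Points are the fitted difference, lines its 95% interval, filled points the called genes and dashed lines the fold limit of 0.5. Mstn lies beyond 4 in both, Fst has the widest intervals, and Fbxo30 is the only gene with points below 0.

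Of 83 other genes of the axis and of muscle protein loss, 78 were tested in this comparison, and in vehicle mice 33 were called higher in TA and 10 lower, beside the 22.6% and 14.1% over all genes. In D + Q mice 31 were called higher and 9 lower, beside 21.4% and 15.9% over all genes. Partners of the receptor were mostly higher in TA: of 7 ligand and receptor genes tested, 5 were called in vehicle mice, among them Acvr1b, which encodes the type I receptor ALK4 (1.66), Tgfbr1, which encodes ALK5 (1.21), and Acvr2a, which encodes the other type II activin receptor (0.85). Smad3, one of the transducers, was higher by 2.21, while Smad2 was not called (0.14). Of 6 genes of extracellular inhibitors and activating proteases, 2 were called higher in vehicle mice, Fstl1 (0.99) and Bmp1 (0.78), and 1 lower, the follistatin relative Fstl3 (-0.86), and in D + Q mice 2 were called higher and none lower, with Fstl3 at -0.49. In the list of FoxO, glucocorticoid and other atrophy genes, 12 were called higher and 4 lower of 25 tested in vehicle mice, with the glucocorticoid-induced Tsc22d3 (1.94) and Fkbp5 (1.34) higher and Foxo3 (-0.71) and Gabarapl1, an autophagy gene (-1.02), lower. Of 17 other muscle ubiquitin ligases and deubiquitinases, 14 had a positive difference in vehicle mice. The 5 called higher were Usp19 (0.97), Cblb (0.96), Asb2 (0.62), Fbxo40 (0.59) and Trim54 (0.56), and the 2 called lower were Fbxo21 (-0.97) and Trim55, which encodes MuRF2 (-0.77). In D + Q mice 4 were called higher and 2 lower.

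The second comparison asks whether D + Q changed the genes in TA. None of the 9 was called (limma with 1 surrogate variable, adjusted p = 0.999 for each), as was none of the 16298 genes tested (0% higher and 0% lower). The paper called genes in both directions in TA at the same thresholds, by a count-based test (DESeq2) with 1 surrogate variable. The test on TPM used here recovered none of those calls, so its lack of calls does not show that TA was unchanged. At an unadjusted p under 0.05 stood none of the 9 and 488 of all genes, 0.638% positive and 2.36% negative. The groups overlapped for each of the 9 genes, where 0.264% of all genes had every D + Q library above every vehicle library and 1.25% had every one below.

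The smallest unadjusted p among the 9 was that of Fbxo32, whose mean was 51.2 ± 11.0 TPM (SD, n = 4) in D + Q and 70.2 ± 14.4 TPM (n = 4) in vehicle TA. Its log2 difference was -0.37 (95% interval -0.78 to 0.04, adjusted p = 0.999), and it was negative under each of the 18 alternative settings, from -0.55 to -0.24, with no adjusted p under 0.66. The 3 libraries with high injury genes held 36.0, 51.1 and 50.2 TPM, each below every one of the other 5 TA libraries. In the other 5, Fbxo32 was at 61.4 and 56.4 TPM in D + Q and at 83.2, 77.3 and 70.3 TPM in vehicle. These did not overlap, but groups this small are often apart by chance, and the share of all genes apart in these 5 was not computed. With those 3 libraries left out, an alternative chosen after seeing the data, the difference was -0.38 (adjusted p = 0.908). Trim63, the ligase that usually moves with Fbxo32 in atrophy, was at 97.3 ± 9.3 TPM in D + Q and 96.3 ± 14.1 TPM in vehicle TA, with an interval of -0.30 to 0.31. Fbxo31 had an interval of -0.49 to 0.27 and Fbxo30 of -0.29 to 0.43. Differences of up to these sizes cannot be told from none in these mice.

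Mstn in TA had means of 14.0 ± 3.8 TPM (SD, n = 4) in D + Q and 13.5 ± 3.3 TPM in vehicle, a log2 difference of 0.10 (95% interval -0.45 to 0.65). Gdf11 differed by -0.04 (-0.49 to 0.40) and Acvr2b by -0.22 (-0.92 to 0.48). Mstn was lowest in D + Q 4 (8.25 TPM) and vehicle 3 (9.07 TPM), which were 2 of the 3 libraries high in injury genes, and at 12.9 to 16.5 TPM in the other 6. D + Q 1, with the most injury gene RNA, had 16.4 TPM of Mstn, so that low Mstn and high injury genes did not go together in every library.

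Fst and Inhba in TA were highest in the 3 libraries high in injury genes. D + Q 1, D + Q 4 and vehicle 3 had 60.3, 18.8 and 27.9 TPM of Fst, where the other 5 had 3.90 to 11.5. The same 3 libraries had 10.9, 5.46 and 10.1 TPM of Inhba, where the other 5 had 1.41 to 2.68. Inhbb, which encodes the subunit of activin B, was at 8.13, 3.26 and 4.50 TPM in these libraries and at 0.826 to 1.62 in the others. The metallothionein gene Mt1 was at 2976, 1734 and 1687 TPM there and at 156 to 373 elsewhere. The inhibitor and the activin subunit it binds were thus high in the same mice, 2 D + Q and 1 vehicle, and these mice also had the highest values of the surrogate variable (0.70, 0.23 and 0.30, the others at most -0.13). Leukocyte genes summed to 555, 491 and 488 TPM in them and to 265 to 663 TPM in the others, and regenerating fibre genes to 72.0, 61.8 and 45.5 TPM against 47.7 to 110. The part of these cells in the spread was not tested.

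The fitted D + Q difference of Fst and of Inhba changed sign with the surrogate variable. With it Fst differed by -0.49 (95% interval -1.20 to 0.23) and Inhba by -0.47 (-1.01 to 0.08), and without any covariate by 0.14 and 0.05, neither called. With the 3 libraries left out, Fst differed by -0.85 (adjusted p = 0.908), at 4.62 and 3.90 TPM in D + Q and 6.10, 7.39 and 11.5 TPM in vehicle, and Inhba by -0.51 (adjusted p = 0.924). Fst relative to Mstn ran from 0.253 to 0.739 in the 5 libraries low in injury genes and was 3.67 in D + Q 1, 2.28 in D + Q 4 and 3.08 in vehicle 3, a ratio formed after seeing the values. In those 3 mice the transcript of the inhibitor outnumbered that of myostatin, and in the other 5 it did not.

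**Figure D3:**
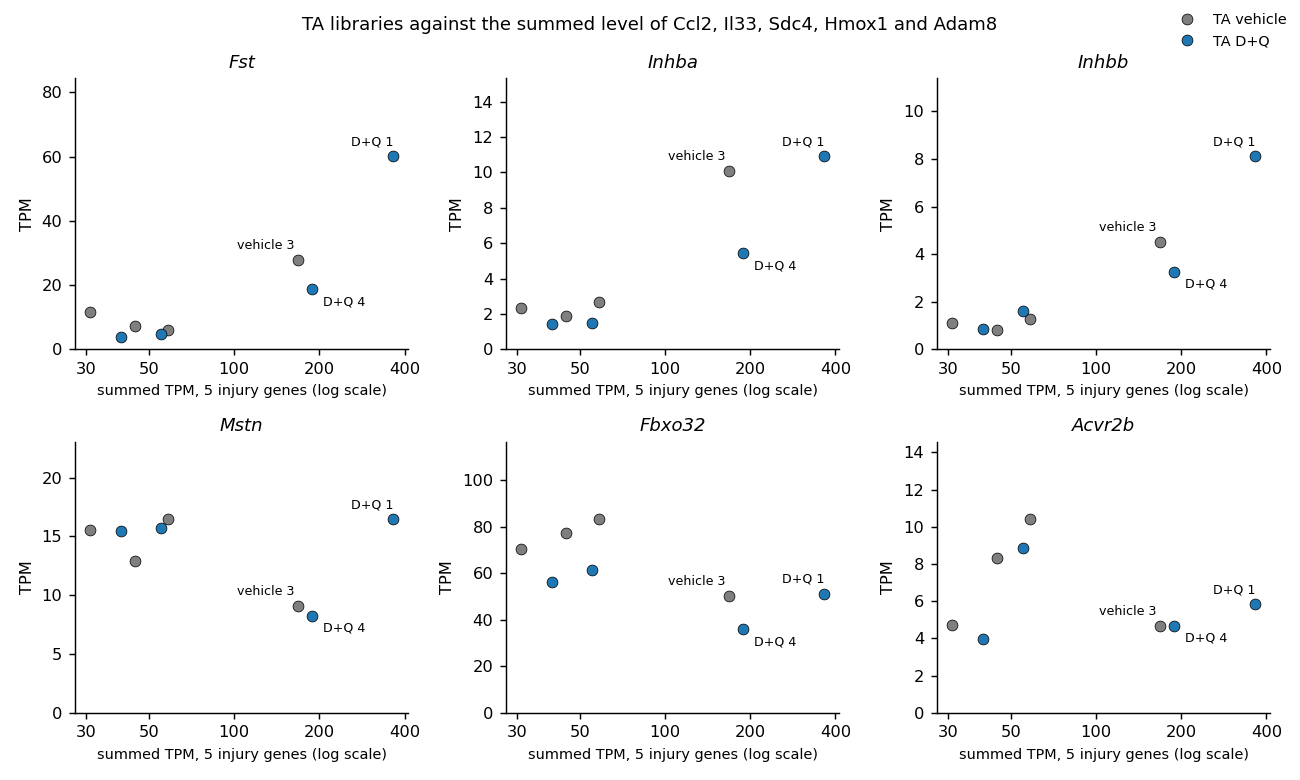
TPM (y axis) of 5 of the genes and of Inhbb in the 8 TA libraries against the summed TPM of the 5 injury genes (x axis, log scale), with vehicle in grey, D + Q in blue and the 3 libraries high in injury genes named. Fst, Inhba and Inhbb are highest in these 3, Fbxo32 is at or under 51.1 TPM in them, and Mstn is low in 2 of them.

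The third comparison asks the same of heart. None of the 8 genes tested was called (limma with labelled sex), beside 0.105% of 16132 genes called higher and 0.211% called lower. The paper, by a count-based test (DESeq2) with sex in its model, called more genes in each direction. Labelled sex counts D + Q 3 as male, against its sex genes. By those genes all D + Q hearts were female, while the vehicle hearts held both sexes. With sex read from expression none of the 8 was called either, and over all genes 3 were called higher and 22 lower. Mstn was not tested, since no heart reached 0.5 TPM. Trim63 and Fbxo31 were the only ones with every D + Q heart above every vehicle heart, as were 9.63% of all genes, while 5.57% lay wholly below, and the same 2 were the only ones at an unadjusted p under 0.05, as were 9.65% of all genes in this direction and 7.99% in the other.

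Trim63 was at 65.3, 66.0, 65.8 and 67.2 TPM in vehicle hearts and at 86.0, 83.0 and 73.4 TPM in D + Q hearts. The vehicle hearts had a coefficient of variation of 1.19%, the smallest of any of the 9 genes in any group, and each D + Q heart stood above them. The log2 difference was 0.27 ± 0.06 (SE, 95% interval 0.13 to 0.42, adjusted p = 0.111), positive under each of the 15 alternative settings, from 0.24 to 0.36, with adjusted p of 0.103 to 0.279. Fbxo31 was at 15.8, 20.0, 18.6 and 18.3 TPM in vehicle and 20.7, 21.2 and 21.8 TPM in D + Q hearts, a difference of 0.21 ± 0.08 (SE, adjusted p = 0.261). Fbxo32 (0.09, interval -0.17 to 0.35) and Fbxo30 (0.02, -0.20 to 0.23) overlapped between the groups.

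Other genes of the cardiomyocyte stood higher in the same hearts. The 4 cardiac muscle genes summed to 13640 to 14940 TPM in vehicle and 16820 to 17880 TPM in D + Q hearts, and each of the 4 was higher in all D + Q hearts, though none was called. Per 1000 TPM of these 4 genes, Trim63 was at 4.79, 4.54, 4.40 and 4.66 in vehicle and 4.81, 4.72 and 4.36 in D + Q hearts, and Fbxo31 at 1.16 to 1.38 and 1.16 to 1.30, so that the groups overlapped for both. By the same ratio Fbxo30 was at 0.743 to 0.906 in vehicle and 0.664 to 0.741 in D + Q hearts, and Acvr2b at 0.160 to 0.187 and 0.109 to 0.134, with D + Q lower and no overlap. In TPM the groups overlapped for both, and the divisor itself was higher in every D + Q heart, which lowers the ratio of a gene with unchanged TPM. The share of all genes apart by this ratio was not computed. This ratio was formed after seeing the values and has no test. The atrial gene sum ran from 864 to 4260 TPM in vehicle hearts and from 382 to 427 TPM in D + Q hearts. In D + Q hearts this sum was mostly Nppa, at 373 to 421 TPM, which was at 573.5 to 2956 TPM in vehicle. Myl7 was at 94.1 to 730 TPM in vehicle and 3.46 to 4.54 TPM in D + Q hearts, and Myl4 at 72.0 to 515 and 2.05 to 4.62. Of the 5 atrial genes, 3 were called lower and 4 lay wholly below vehicle, beside 0.211% and 5.57% of all genes. Red cell genes summed to 285 to 1067 TPM in vehicle and 23.7 to 107 TPM in D + Q hearts, and fibroblast genes to 482 to 707 and 394 to 461. Clock genes summed to 290 to 371 and 164 to 188, a sum over genes that moved in opposite directions. Of 13 clock genes, 1 was called higher and 7 lower, beside 0.105% and 0.211% of all genes. In D + Q hearts 3 lay wholly above vehicle and 10 wholly below, beside 9.63% and 5.57%. Arntl was at 1.35 to 3.15 TPM in vehicle and 8.55 to 10.2 TPM in D + Q hearts, and Dbp at 50.15 to 77.3 and 8.42 to 15.4. The part of these cell types and of the clock genes in the ligase values was not tested.

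Among the 17 other muscle ubiquitin ligases and deubiquitinases, none was called in heart, 12 had a positive difference, and 3 lay wholly above vehicle and 1, Traf6 (-0.20), wholly below, beside 9.63% and 5.57% over all genes. Asb2, the substrate receptor of a ligase that degrades filamin B and a known regulator of muscle mass, was at 136, 137, 144 and 127 TPM in vehicle and 200.1, 184 and 170 TPM in D + Q hearts. Its log2 difference of 0.41 ± 0.06 (SE, adjusted p = 0.0485) passed the adjusted p and missed the fold limit. Fbxo40, a muscle F-box gene that acts on IRS1, was at 61.3 to 63.5 TPM in vehicle and 75.2 to 79.6 TPM in D + Q hearts (0.31 ± 0.05, adjusted p = 0.081). Trim54, which encodes MuRF3, was at 59.3 to 64.8 and 71.5 to 79.6 TPM (0.25 ± 0.06, adjusted p = 0.123). Per 1000 TPM of the cardiac muscle genes, Fbxo40 (4.18 to 4.66 and 4.21 to 4.56) and Trim54 (4.08 to 4.70 and 4.18 to 4.45) overlapped, and Asb2 did not (8.83 to 9.99 and 10.1 to 11.2). Skp1, the adaptor of SCF ligases, differed by 0.17 (adjusted p = 0.176) and Cul1, their scaffold, by 0.16 (adjusted p = 0.337), with Cand1, which exchanges the F-box proteins, at -0.11.

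**Figure D4:**
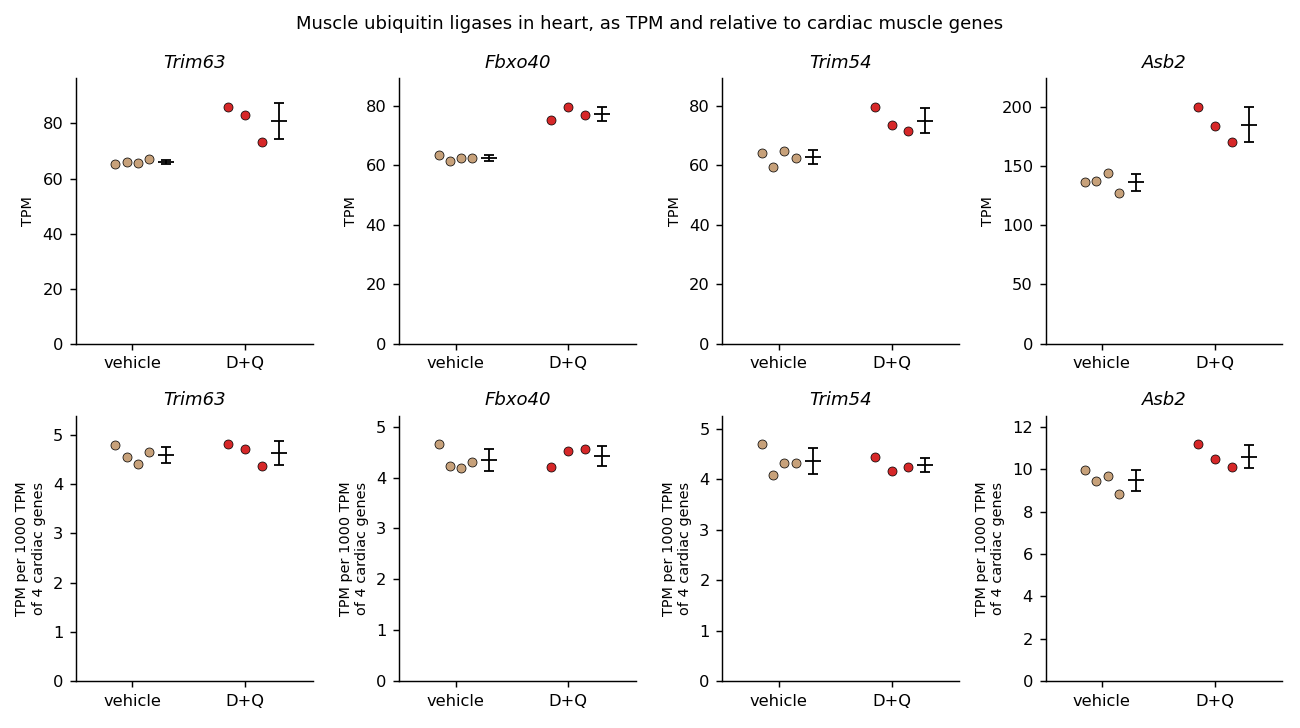
Trim63, Fbxo40, Trim54 and Asb2 in vehicle and D + Q hearts, as TPM (upper row, y axis) and per 1000 TPM of 4 cardiac muscle genes (lower row, y axis). Points are hearts, and the mark with its bar is the mean ± SD of 4 vehicle or 3 D + Q hearts. The groups are apart for all 4 genes in TPM and, relative to the cardiac genes, for Asb2 alone.

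The ligand, receptor and inhibitor genes of heart overlapped between the groups. Acvr2b had means of 2.49 ± 0.22 TPM (SD, n = 4) in vehicle and 2.08 ± 0.28 TPM (n = 3) in D + Q hearts, a log2 difference of -0.24 (95% interval -0.52 to 0.04, adjusted p = 0.345). Fst differed by -0.47 (-1.35 to 0.41, adjusted p = 0.561), Inhba by 0.07 (-0.26 to 0.40) and Gdf11 by -0.04 (-0.35 to 0.27). Fst was near the filter in these hearts, and its interval is the widest of the 8. Mstn was at a mean of 0.185 TPM in vehicle and 0.0911 TPM in D + Q hearts, 1 of which was listed at 0.

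**Figure D5:**
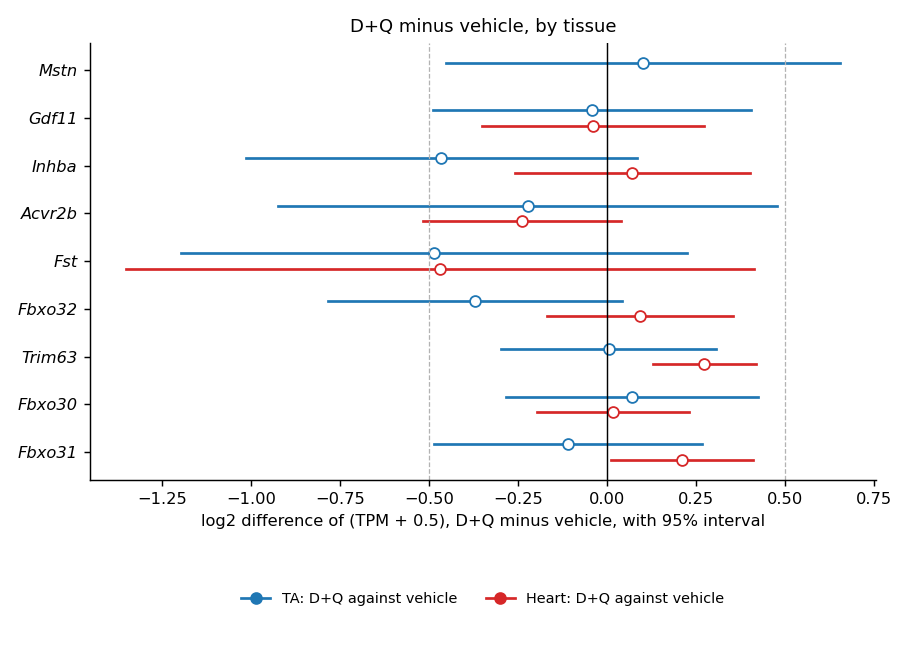
Difference between D + Q and vehicle (x axis, log2 of TPM + 0.5) for each gene (y axis), in TA in blue and heart in red, with points for the fitted difference, lines for its 95% interval and dashed lines at the fold limit of 0.5. All points are open, since none was called, Mstn has no heart value, and the intervals of Trim63 and Fbxo31 in heart lie above 0.

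The fourth comparison is the difference of the D + Q differences, TA minus heart, in which the sexes of the D + Q libraries again differ by tissue. It was called for none of the 9 genes, beside 0.0448% of 17868 genes called higher and 0.0168% lower. One of the 9, Fbxo32, had an unadjusted p under 0.05 with a negative value, as had 3.71% of all genes, and 1.85% had one with a positive value. It was largest relative to its error for Fbxo32, at -0.58 ± 0.26 (SE, adjusted p = 0.894), with a D + Q difference of -0.37 in TA and 0.09 in heart in the fits within each tissue. Fbxo31 (-0.35, adjusted p = 0.911) and Trim63 (-0.27, adjusted p = 0.911) also had negative values, and Fst the widest interval, -1.49 to 2.86. For Fbxo32 it was negative in all 22 alternative settings, from -0.74 to -0.42, with no adjusted p under 0.46.

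Of the other genes of the axis, none of the 77 tested in TA and none of the 75 tested in heart was called in the D + Q comparisons, with medians of 0.00 and -0.02 beside -0.07 and -0.0025 over all genes. Among ligands and receptors, the lowest p values were those of Acvr1, which encodes the BMP type I receptor ALK2 (-0.34 in heart, adjusted p = 0.162), Tgfbr1 (-0.16, adjusted p = 0.391) and Inhbb (-0.25, adjusted p = 0.423). Among inhibitors and proteases they were those of Fstl1, a secreted follistatin-like glycoprotein (-0.36 in heart, adjusted p = 0.144), with D + Q hearts at 24.1 to 25.7 TPM and vehicle hearts at 26.6 to 40.4 TPM, of Bmp1, a protease that frees myostatin from its propeptide (-0.26, adjusted p = 0.224), and of Furin, which cleaves the precursor (0.37, adjusted p = 0.237). Of the 5 fibroblast genes, all 5 had a negative difference in heart as Fstl1 and Bmp1 did, with a median of -0.28, and none was called. Their part in these values was not tested. Among SMAD genes they were Smurf1 (-0.22 in heart, adjusted p = 0.259), the inhibitory Smad7 (-0.26, adjusted p = 0.293) and Smad2 (-0.29 in TA, adjusted p = 0.999). In the BMP branch they were Id2 (-0.49 in heart, adjusted p = 0.285), Smad9 (-0.41, adjusted p = 0.317) and Smad1 (-0.24, adjusted p = 0.385).

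The list of FoxO, glucocorticoid and other atrophy genes held the larger heart differences, still not called. Hdac4, a histone deacetylase that rises on denervation, was at 12.4 to 15.2 TPM in vehicle and 6.54 to 9.68 TPM in D + Q hearts (-0.67 ± 0.14, adjusted p = 0.103). Pik3ip1, an inhibitor of PI3 kinase, was at 19.7 to 27.7 and 14.0 to 17.9 TPM (-0.60 ± 0.15, adjusted p = 0.117). Bnip3, a mitophagy gene that FoxO3 raises, went the other way, at 60.4 to 69.0 and 75.6 to 90.9 TPM (0.35 ± 0.08, adjusted p = 0.112). These 3 did not overlap between the groups of hearts. The paper lists Pik3ip1 among the genes lowered by D + Q in both tissues. In TA it was at 5.93 to 12.5 TPM in D + Q and 8.09 to 21.7 TPM in vehicle, which overlap. In heart, 2 genes of this list lay wholly above and 3 wholly below among 25 tested, beside 9.63% and 5.57% over all genes. In TA the same list had a median of 0.15 beside -0.07 over all genes, with none of the 25 apart between the groups and 2 at an unadjusted p under 0.05. Fkbp5, a glucocorticoid-induced chaperone gene and 1 of these 2, was at 29.8, 25.5, 42.0 and 47.9 TPM in D + Q and 15.3, 26.1, 25.8 and 23.2 TPM in vehicle TA (0.67 ± 0.24, adjusted p = 0.999).

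Genes with the most similar pattern were sought among 12310 genes with a mean of at least 1 TPM in each group, by Pearson r of the deviations from the group mean over the 15 libraries, as a description that rests on shared libraries. Mstn and Fst did not meet the minimum. Inhba was closest to Fgl2 (0.99), Dusp5 (0.98) and Il33 (0.98), and the TA libraries carried these values, with r in heart of 0.53, 0.09 and 0.57. Fbxo30 was closest to Nfkb2 (0.98), Ipo7 (0.96) and Txn1 (0.96), with heart values of 0.87, 0.79 and 0.87. Fbxo32 was closest to Gm26740 (0.92), Atosa (0.88) and Fam151b (0.87), with heart values of 0.90, 0.97 and 0.78. Trim63 was closest to Erbb3 (0.83), Ctps2 (0.83) and Mpp7 (0.81), with heart values of 0.38, 0.90 and 0.58. Fbxo31 was closest to Klhl33 (0.93), Castor2 (0.92) and Mrpl58 (0.92), with heart values of 0.66, 0.85 and 0.87, and Acvr2b to Eml2 (0.97), Rnf150 (0.96) and Car8 (0.96), with heart values of 0.76, 0.81 and 0.90. Gdf11 was closest to Gm45844 (0.85), Rnu12 (0.83) and Haus1 (0.83), with heart values of 0.59, -0.64 and 0.83, so that Rnu12 went the opposite way in the 7 hearts. No other gene of the 9 was among these, and the 21 genes named here belong to none of the lists above apart from Il33 of the injury genes.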

How the data were processed

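RNA from snap-frozen TA and heart was made into mRNA libraries. The authors trimmed reads with Trim Galore 0.6.10, quantified them with Salmon 1.10.3 against GRCm39 and deposited TPM for 56980 genes, summed per gene, with genes at 0 kept. TPM keeps no depth, so depth is unknown and precision is the spread between mice. The annotation release is not given in the sources used here. Symbols came from GENCODE M39, which held 56236 of the identifiers.

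Samples were grouped by their labels. Values were tested as log2(TPM + 0.5) with limma 3.58.1 in R 4.3.3 (eBayes with a trend), over genes of at least 0.5 TPM in at least 3 libraries, with Benjamini-Hochberg adjustment over all genes. Fold changes on this scale understate the change of low genes. The TA fit had 1 surrogate variable, estimated in 5 rounds of iterative re-weighting, and the heart fit had labelled sex. TA and heart were compared in 1 fit of 4 group means over 15 libraries with no covariate. The fits were tested on simulated data. Alternatives were other pseudocounts and filters, median-of-ratios scaling, other covariates, a replicate block and each library left out. Sequences came from the GRCm39 genome, 300 bases before each canonical start, with Python 3.11.15.

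The 9 genes and all other lists were chosen with earlier results of these data known. From each list of other genes, those called in a D + Q comparison and up to 3 with the lowest unadjusted p were named. Asb2 passed the adjusted p alone. Further genes, mostly in the comparison of tissues, were named after their values were seen.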

Additional observations from a re-analysis of the deposited data

Results flagged for a closer look

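Among 90 groups of 4 libraries, 7 had 1 library apart from the other 3, by Dixon's test at the 95% level, where chance gives about 5%. In TA vehicle 4, Fbxo30 was at 6.99 TPM, below the 10.6 to 10.8 of the other 3 libraries. In TA D + Q 4, Mstn was at 8.25 TPM, below 15.4 to 16.4 in the others. In TA D + Q 3, Gdf11 was at 8.003 TPM, above 4.10 to 4.75. In TA vehicle 3, Inhba was at 10.1 TPM, above 1.89 to 2.68, and Inhbb at 4.503 TPM, above 0.826 to 1.26, and this library was also the one vehicle TA library with high injury genes. In heart vehicle 2, Smad2 was at 13.3 TPM, above 10.8 to 11.1, and Id2 at 22.3 TPM, above 11.4 to 12.2. That heart also had the highest sum of atrial genes (4260 TPM) and of red cell genes (1067 TPM), and their part was not tested.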

How the results depend on the processing

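Calls among the 9 genes held under the alternatives run, apart from the losses that follow. Single calls were lost for Trim63 in vehicle TA against heart (0.34 by median-of-ratios scaling, 0.44 without TA vehicle 1) and for Fbxo32 in D + Q TA against heart (0.52 without TA D + Q 2, 0.46 without heart D + Q 3). Counts over all genes were less steady, and the cause was not tested. In TA, leaving out 1 library gave 0 to 1 genes higher and 0 to 1 lower, and leaving out the 3 libraries high in injury genes gave 6 lower. In heart, against 17 higher and 34 lower, no filter gave 0 and 0, median-of-ratios scaling 11 higher, sex read from expression 3 and 22, and the replicate block 0 and 4. Leaving out 1 heart gave 0 to 64 higher and 0 to 72 lower, with none of either without vehicle 2 and the most without vehicle 3. For the difference of differences, against 8 higher and 3 lower, pseudocount 1 gave 5 higher, no filter 4 and 1, labelled sex 1 lower, the replicate block 4 and 1, and leaving out 1 library 4 to 9 higher and 1 to 7 lower.

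Signs turned only for log2 differences that were not called. In TA, Trim63 was -0.033 with labelled sex or in males only and -0.081 without the 3 libraries, where Fbxo30 was -0.037. Gdf11 was 0.034 by median-of-ratios scaling, and Inhba 0.05 and Fst 0.14 with no covariate, as with the replicate block (0.045 and 0.14). Leaving out 1 TA library moved Trim63 from -0.10 to 0.10, Fbxo30 from -0.0058 to 0.14, Fbxo31 from -0.24 to 0.0031, Mstn from -0.12 to 0.29, Gdf11 from -0.22 to 0.13 and Fst from -0.70 to 0.13. In heart, Inhba was -1.7e-05 with sex read from expression. Leaving out 1 heart moved Inhba from -0.0011 to 0.17, Fbxo32 from -0.0221 to 0.25, Fbxo30 from -0.0569 to 0.0837, Gdf11 from -0.10 to 0.0176 and Fst from -0.84 to 0.0212. In D + Q TA against heart, Fbxo30 moved from -0.28 to 0.0192. In the difference of differences, labelled sex gave 0.0144 for Gdf11 and 0.0141 for Acvr2b, median-of-ratios scaling 0.0067 for Inhba and 0.0599 for Acvr2b, pseudocount 0.1 gave 0.0058 for Acvr2b, and the replicate block 0.0562 for Acvr2b. Leaving out 1 library there moved Gdf11 from -0.29 to 0.0078, Inhba from -0.55 to 0.44, Acvr2b from -0.22 to 0.19 and Fst from -0.0658 to 1.1965.

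The replicate block changed no call of the 9 genes. Mice with the same number did not deviate together, with correlations of -0.30 to 0.04 in TA and -0.04 to 0.03 in heart, so the numbers were not taken as pairs. With 3 or 4 mice a group and depth unknown, smaller differences were not detectable.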
